A study of Mus musculus with 37 samples.

Results

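The genes described here are 9 regulators and markers of the primitive streak and of gastrulation in the mouse, Wnt3, Nodal, Mixl1, Evx1, Mesp1, Lhx1, Gsc, Snai1 and Cyp26a1. They were picked by symbol from the 55401 genes of an RNA-seq table of embryos at embryonic day 6.5, and all 9 were found. The study deleted Bap1, whose protein removes ubiquitin from histone H2A as part of a complex that opposes Polycomb, in growing oocytes. RNA was sequenced from 3 separated lineages of the resulting embryos, namely the epiblast, which gives rise to the embryo proper, the visceral endoderm, which surrounds it, and the extra-embryonic ectoderm, a trophoblast tissue.

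Knockout embryos came from Bap1flox/flox mothers carrying Gdf9-iCre, in which Cre recombinase is driven by the promoter of the oocyte gene Gdf9, and control embryos came from Bap1flox/flox mothers without iCre. Both were sired by PWK males, so that every embryo could receive an intact paternal Bap1 allele and the knockout is that of the mother's contribution. Because of that allele the Bap1 level of these tissues does not test the labels. Epiblast and visceral endoderm had 2 control and 2 knockout libraries each, and extra-embryonic ectoderm had 1 control and 2 knockout libraries. All 11 libraries were prepared from poly(A) RNA (SMART-Seq mRNA kit, then Nextera XT). The labels do not say whether a library holds 1 embryo or a pool, nor whether replicates are separate litters, so p-values measure only the spread between these libraries, which may be technical.

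Levels are given in FPKM, fragments per kilobase of transcript scaled to the size of the library, which can be compared between genes within a library. FPKM does not keep the read number, so the depth behind each value is unknown. Between 10476 and 12459 genes reached 1 FPKM in a library. The lineage labels were checked against marker genes. The epiblast gene Pou5f1 lay between 274 and 694 FPKM in epiblast and at most at 0.213 in visceral endoderm, the visceral endoderm gene Ttr between 609 and 1785 in visceral endoderm and at most at 0.502 in epiblast, and the extra-embryonic ectoderm gene Elf5 between 135 and 184 in that tissue and at most at 0.381 elsewhere. Other listed markers were less exclusive. Pou5f1 itself was at 20.5 FPKM in control and 0.127 and 13.8 in knockout extra-embryonic ectoderm. That control library held 79.3% of the control epiblast mean of Utf1, 88.9% of Pou3f1 and 218% of Sox2. It also held 197% of the control visceral endoderm mean of Rhox5. Control visceral endoderm held 22.3% of the control epiblast mean of Fgf5, and knockout epiblast 135% of the knockout extra-embryonic ectoderm mean of Sox3. One library stood apart, knockout visceral endoderm replicate 1. Its summed level of 5 blood genes was 38.2 FPKM, against at most 0.233 in the other visceral endoderm libraries. Of the 6 decidual genes listed, Cryab at 21.6 and Prl8a2 at 2.76 FPKM were highest there. Dcn and Pgr were at 0, Bmp2 at 1.71 and Igfbp4 at 16.8, none of them above all other visceral endoderm libraries. Y-linked transcripts were found in control replicate 1 and knockout replicate 2 of all 3 lineages, and in no other library.

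During gastrulation cells of the posterior epiblast pass through the primitive streak and leave it as mesoderm and definitive endoderm. WNT3 and NODAL are the secreted signals that start this process, and BMP4 from the extra-embryonic ectoderm maintains them. The transcription factors MIXL1, EVX1, GSC, LHX1 and MESP1 mark successive or neighbouring streak derivatives, SNAI1 lets cells leave the epithelium by repressing E-cadherin, and CYP26A1 degrades retinoic acid. Several of these genes have a second site of expression in the visceral endoderm, where LHX1 and GSC are known in its anterior part, the anterior visceral endoderm, which secretes antagonists of WNT and NODAL, and WNT3 in the posterior part.

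The regions just upstream of the start sites are shown for 3 members, because Polycomb complexes are known to act at promoters rich in the dinucleotide CG, and because retinoic acid is known to induce Cyp26a1. Sequences are from RefSeq on GRCm38.p6, given 5′ to 3′ on the strand of the gene. Promoters were found for 8 of the 9 genes, all but Mixl1. In the first, on chromosome 19 upstream of the plus-strand gene Cyp26a1 (chr19:37697558-37697797), capitals mark a match to a retinoic acid response element. In the other two, upstream of the minus-strand gene Lhx1 (chr11:84525536-84525784) and of the plus-strand gene Nodal (chr10:61417722-61417971), capitals mark each CG.
Cyp26a1: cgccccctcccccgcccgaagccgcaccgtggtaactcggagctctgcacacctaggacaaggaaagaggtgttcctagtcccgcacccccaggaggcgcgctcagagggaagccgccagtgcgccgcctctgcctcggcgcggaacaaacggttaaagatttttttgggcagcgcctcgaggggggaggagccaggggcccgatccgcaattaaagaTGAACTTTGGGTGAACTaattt
Lhx1: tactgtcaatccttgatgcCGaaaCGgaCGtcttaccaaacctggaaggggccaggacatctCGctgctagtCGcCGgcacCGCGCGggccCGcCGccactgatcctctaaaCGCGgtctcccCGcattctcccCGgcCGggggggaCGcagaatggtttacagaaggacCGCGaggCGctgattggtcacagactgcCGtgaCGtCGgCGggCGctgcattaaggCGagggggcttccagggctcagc
Nodal: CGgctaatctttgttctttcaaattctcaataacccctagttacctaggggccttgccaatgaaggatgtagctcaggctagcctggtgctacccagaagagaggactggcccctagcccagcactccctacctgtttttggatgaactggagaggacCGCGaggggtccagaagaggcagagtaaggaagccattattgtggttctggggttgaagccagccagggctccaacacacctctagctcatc

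Lhx1 has 26 CG dinucleotides in the 250 bases before its RefSeq start and Nodal has 3. Snai1 has 27, Wnt3 and Gsc have 22 each, Cyp26a1 has 20, Evx1 has 10 and Mesp1 has 2. The median over the 8 genes is 21, against 6 over the 32851 promoters of the table. For some genes the GENCODE gene begins inside that window. The part upstream of it is then shorter, with 8 CG in 156 bases for Gsc, 20 in 225 for Wnt3 and 0 in 52 for Mesp1. The capitals in the Cyp26a1 sequence match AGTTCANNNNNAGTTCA, a direct repeat bound by retinoic acid receptors, on the opposite strand. The first letter is 22 bases before the GENCODE start. A match to this repeat occurs in 7 of the 32851 promoters (0.0213%). Both strands were searched in the same windows for further motifs. The related repeat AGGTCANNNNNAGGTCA (0.00913% of promoters), the FOXH1 motif AATNNACA (10.9%), the T-box motif AGGTGTGA (1.12%) and the SMAD motif GTCTAGAC (0.167%) were in none of the 8 windows, and the TCF/LEF motif ATCAAAG (3.21%) was in the window of Mesp1. The Mesp1 match lies inside the annotated gene, not in the 52 bases upstream of its GENCODE start. No listed motif overlaps another in these windows. Binding was not measured, and a match is a description of the letters only.

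Most of these genes were highest in visceral endoderm, not in epiblast. Of the 9 genes, 6 had their highest mean level in visceral endoderm (Wnt3, Mixl1, Evx1, Lhx1, Gsc and Cyp26a1), 2 in epiblast (Nodal and Mesp1) and 1 in extra-embryonic ectoderm (Snai1). The lineages were compared with limma on log2(FPKM + 1), averaged over the genotypes, among the 13914 genes that reached 1 FPKM in 2 or more of the 11 libraries, and a gene was called at an adjusted p under 0.05. Mesp1 did not pass that filter, which left 8 genes tested. Lhx1 passed it through its visceral endoderm libraries alone, so the counts describe the genes tested and support nothing by themselves. In epiblast against visceral endoderm 5 of the 8 were called lower and 0 higher, where 16.8% of all genes tested were called lower and 21.6% higher, and the median difference of the 8 was -1.86 on the log2 scale against 0.20 over all genes. In visceral endoderm against extra-embryonic ectoderm 7 of the 8 were called higher and 1 lower, where 11.3% of all genes were called in each direction. In epiblast against extra-embryonic ectoderm 2 were called higher and 2 lower, where 10.4% and 9.13% of all genes were called. In bulk libraries fewer cells of a type and less RNA per cell cannot be told apart.

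**Figure D1:**
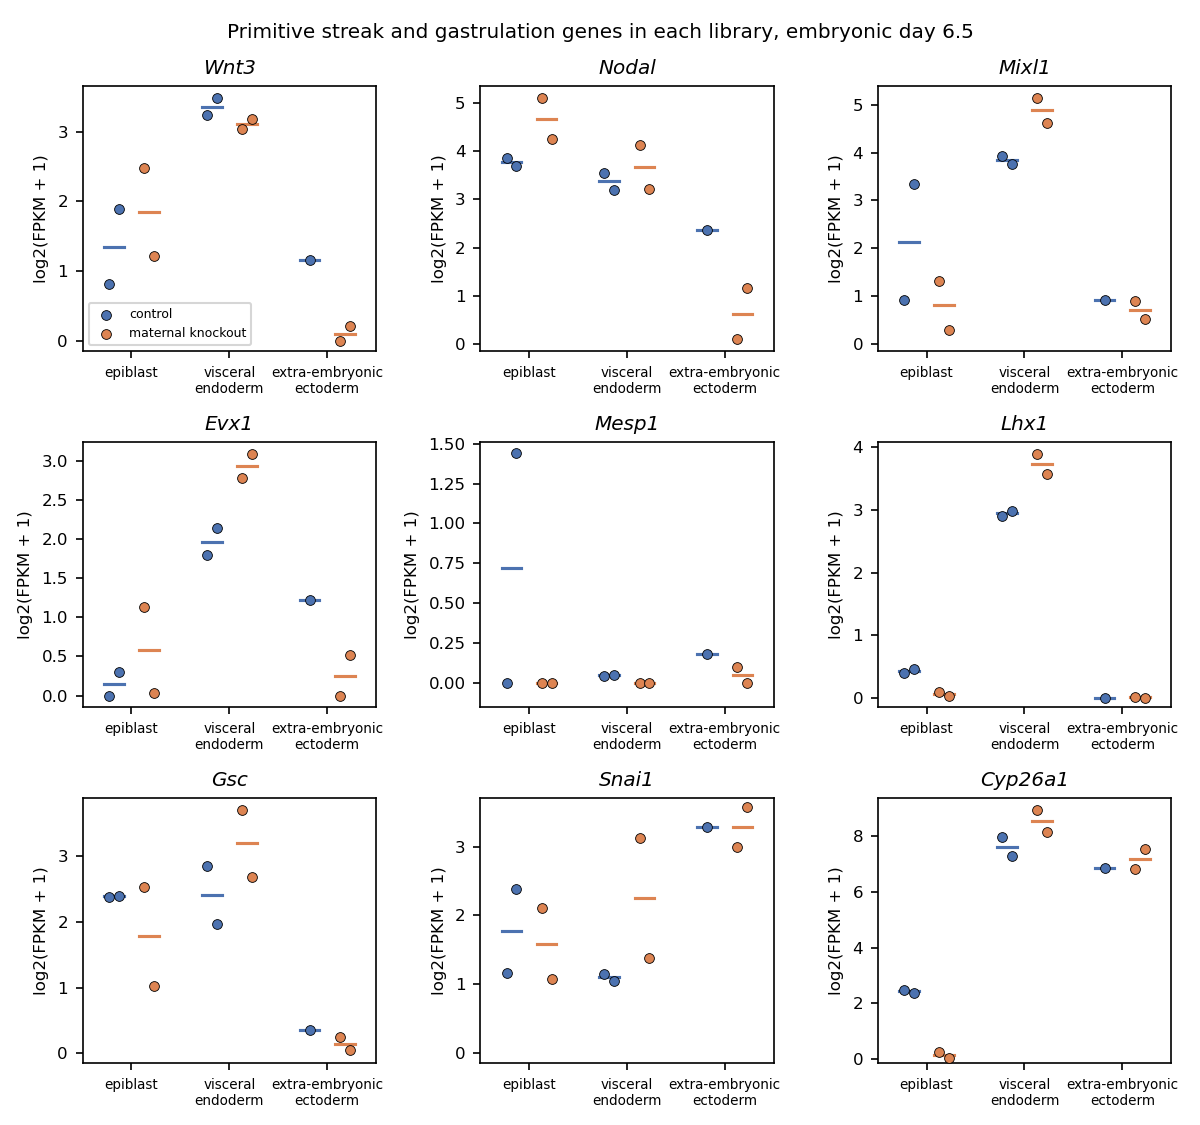
Levels of the 9 genes in each library as log2(FPKM + 1) on the vertical axis, by lineage; each point is 1 library, blue for controls and orange for maternal knockouts, and bars are group means. Lhx1 is near 0 outside visceral endoderm, Cyp26a1 is high in visceral endoderm and extra-embryonic ectoderm, and Mesp1 reaches 1 FPKM in 1 library.

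Wnt3 (ENSMUSG00000000125.5, plus strand of chromosome 11, bases 103774150 to 103817957 on GRCm38), the Wnt ligand required for streak formation, was at 8.41 and 10.2 FPKM in the control and 7.22 and 8.07 in the knockout visceral endoderm libraries. In epiblast it was at 0.761 and 2.71 in controls and 4.56 and 1.32 in knockouts, and in extra-embryonic ectoderm at 1.23 in the control and 0.00112 and 0.155 in the knockouts. Every visceral endoderm library was thus above every epiblast library, while epiblast and extra-embryonic ectoderm overlapped. Wnt3 was lower in epiblast than in visceral endoderm by a log2 difference of -1.63 (SE 0.34, limma adjusted p = 0.00440) and higher in visceral endoderm than in extra-embryonic ectoderm by 2.60 (SE 0.38, limma adjusted p = 0.000931). The difference between epiblast and extra-embryonic ectoderm of 0.97 (95% interval 0.11 to 1.83) was not called (limma adjusted p = 0.119), but was called with a pseudocount of 0.1 FPKM in place of 1 (limma adjusted p = 0.0376), without knockout epiblast replicate 2 (0.0274) and without the control library of extra-embryonic ectoderm (0.0359).

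Nodal (ENSMUSG00000037171.6, plus strand of chromosome 10, bases 61417972 to 61425338), the TGF-beta family ligand of streak induction, was the member with the most epiblast signal, at 13.6 and 11.9 FPKM in controls and 33.3 and 18 in knockouts. In visceral endoderm it was at 10.7 and 8.20 in controls and 16.5 and 8.29 in knockouts. In extra-embryonic ectoderm it was at 4.13 in the control and 0.0750 and 1.23 in the knockouts, below every library of the other lineages. Epiblast and visceral endoderm overlapped, and their difference of 0.70 (95% interval -0.06 to 1.46) was not called (limma adjusted p = 0.131). Nodal was higher in epiblast than in extra-embryonic ectoderm by 2.73 (SE 0.38, limma adjusted p = 0.000830) and higher in visceral endoderm than there by 2.03 (SE 0.38, limma adjusted p = 0.00379). With the control libraries alone the contrasts with extra-embryonic ectoderm, which then rest on 1 library of it, fell to 1.42 and 1.01 and were no longer called (limma adjusted p = 0.237 and 0.383).

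Mixl1 (ENSMUSG00000026497.7, minus strand of chromosome 1, bases 180693043 to 180697034) encodes a homeodomain factor of the streak. It was at 14.2 and 12.5 FPKM in control and 34.5 and 23.5 in knockout visceral endoderm, and between 0.440 and 0.886 in extra-embryonic ectoderm. Epiblast control replicate 2 stood out from the other epiblast libraries, with 9.18 FPKM against 0.882 in control replicate 1 and 1.5 and 0.235 in the knockouts. Even so, each visceral endoderm library was above all epiblast libraries, with a log2 difference of -2.89 in epiblast against visceral endoderm (SE 0.49, limma adjusted p = 0.00135) and of 3.55 in visceral endoderm against extra-embryonic ectoderm (SE 0.55, limma adjusted p = 0.00124). With the control libraries alone the difference from epiblast was -1.71 and was not called (limma adjusted p = 0.114), and that from extra-embryonic ectoderm was 2.93 (limma adjusted p = 0.0614).

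Evx1 (ENSMUSG00000005503.8, plus strand of chromosome 6, bases 52313498 to 52318378), a homeobox gene of the posterior streak, was at 2.47 and 3.4 FPKM in control and 5.86 and 7.49 in knockout visceral endoderm. No other library was above 1.33. Evx1 was lower in epiblast than in visceral endoderm by a log2 difference of -2.08 (SE 0.28, limma adjusted p = 0.000366) and higher in visceral endoderm than in extra-embryonic ectoderm by 1.71 (SE 0.32, limma adjusted p = 0.00364), and the latter fell to 0.75 with the control libraries alone (limma adjusted p = 0.460). Evx1 is the only member that overlaps another annotated gene, the antisense gene Evx1os, which was at 1.5 and 1.01 FPKM in control and 4.10 and 2.54 in knockout visceral endoderm. The sources do not say whether counting for these libraries used the strand, and reads of the pair cannot be told apart where the exons overlap, which holds for 0.904% of the 50-base words of Evx1.

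Mesp1 (ENSMUSG00000030544.5, minus strand of chromosome 7, bases 79792241 to 79793788), a factor of the nascent mesoderm, reached 1 FPKM in 1 library, epiblast control replicate 2, at 1.71. The other libraries lay between 0 and 0.137. It was therefore not tested. The library with Mesp1 was also the epiblast library with the highest Mixl1, Lhx1, Snai1 and T, the last at 2.22 FPKM against 0.428, 1.18 and 0.0813 in the other epiblast libraries. Other members went another way, with Nodal lowest there, at 11.9 FPKM. Wnt3, Evx1 and Gsc were highest in knockout epiblast replicate 1, at 4.56, 1.19 and 4.78 FPKM against 2.71, 0.236 and 4.25. Cyp26a1 was highest in control replicate 1. T, or brachyury, is the defining gene of the primitive streak, and it did not exceed 2.51 FPKM in any of the 11 libraries. It was highest in extra-embryonic ectoderm, at 2.51 in the control and 2.31 and 2.46 in the knockouts, above every library of the other lineages.

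Lhx1 (ENSMUSG00000018698.15, minus strand of chromosome 11, bases 84518284 to 84525535), a LIM homeobox gene, was at 6.53 and 6.88 FPKM in control and 13.8 and 10.9 in knockout visceral endoderm. In epiblast it was at 0.314 and 0.378 in controls and 0.0653 and 0.0183 in knockouts, and in extra-embryonic ectoderm it was at most at 0.0157. Lhx1 had the clearest separation after Cyp26a1, being lower in epiblast than in visceral endoderm by a log2 difference of -3.09 (SE 0.20, limma adjusted p = 3.36e-06) and higher in visceral endoderm than in extra-embryonic ectoderm by 3.33 (SE 0.22, limma adjusted p = 5.22e-06). On this scale a difference from near 0 is understated. The gene Lhx1os, which does not overlap Lhx1 in the annotation and was picked after its values were seen, was at 24.1 and 16.9 FPKM in control and 19.2 and 25.2 in knockout visceral endoderm, and at most at 0.271 elsewhere.

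Gsc (ENSMUSG00000021095.5, minus strand of chromosome 12, bases 104471209 to 104473330), the organizer homeobox gene goosecoid, was present in both embryonic lineages. It was at 4.19 and 4.25 FPKM in control and 4.78 and 1.03 in knockout epiblast, and at 6.16 and 2.90 in control and 11.9 and 5.43 in knockout visceral endoderm. In extra-embryonic ectoderm it lay between 0.0336 and 0.278. Epiblast and visceral endoderm overlapped, with a difference of -0.71 (95% interval -1.58 to 0.16, limma adjusted p = 0.176), though it was called without knockout epiblast replicate 1 (-1.09, limma adjusted p = 0.0333). Gsc was higher than in extra-embryonic ectoderm by 1.83 in epiblast (SE 0.43, limma adjusted p = 0.0153) and by 2.55 in visceral endoderm (SE 0.43, limma adjusted p = 0.00225). With the control libraries alone neither was called (2.03 and 2.05, limma adjusted p = 0.126 and 0.0962), and the first was also lost without a filter on low values (limma adjusted p = 0.0633) and without knockout extra-embryonic ectoderm replicate 2 (0.0504).

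Snai1 (ENSMUSG00000042821.7, plus strand of chromosome 2, bases 167538195 to 167542814), which encodes the repressor that drives cells out of the epithelium, had the reverse order, with 8.78 FPKM in control and 7.00 and 11 in knockout extra-embryonic ectoderm. It was at 1.25 and 4.22 in control and 3.30 and 1.10 in knockout epiblast, and at 1.22 and 1.08 in control and 7.69 and 1.61 in knockout visceral endoderm. The value of 7.69 belongs to knockout visceral endoderm replicate 1, the library with blood transcripts, Cryab and Prl8a2. The part of other tissues in that value was not tested. Epiblast and visceral endoderm did not separate (difference 0.01, 95% interval -0.996 to 1.01, limma adjusted p = 0.993). Snai1 was lower by -1.61 than in extra-embryonic ectoderm both in epiblast (SE 0.50, limma adjusted p = 0.0499991) and in visceral endoderm (SE 0.50, limma adjusted p = 0.0443). Both calls sit at the threshold and were lost under several other settings, such as centring on library medians (limma adjusted p = 0.0533 and 0.0603), and in 7 and 6 of the 11 fits that each left out a library, among them those without the control library of extra-embryonic ectoderm (limma adjusted p = 0.0741 and 0.0682).

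Cyp26a1 (ENSMUSG00000024987.6, plus strand of chromosome 19, bases 37697798 to 37701536), the retinoic acid hydroxylase, was by far the most abundant member. It was at 247 and 153 FPKM in control and 483 and 279 in knockout visceral endoderm, at 115 in control and 112 and 182 in knockout extra-embryonic ectoderm, and at 4.63 and 4.16 in control and 0.196 and 0.0361 in knockout epiblast. Each epiblast library was below all others, while visceral endoderm and extra-embryonic ectoderm overlapped. The log2 difference was -6.77 between epiblast and visceral endoderm (SE 0.27, limma adjusted p = 3.89e-07) and -5.72 between epiblast and extra-embryonic ectoderm (SE 0.30, limma adjusted p = 5.07e-06). Visceral endoderm was above extra-embryonic ectoderm by 1.06 (SE 0.30, limma adjusted p = 0.0335), a call that was lost with a pseudocount of 0.1 (limma adjusted p = 0.0689), without a filter on low values (0.0880), with TPM scaling (0.0521) and with the control libraries alone (0.431). It was also lost without replicate 1 of any of 4 groups, namely control visceral endoderm (limma adjusted p = 0.0980), knockout visceral endoderm (0.114), control extra-embryonic ectoderm (0.0941) and knockout extra-embryonic ectoderm (0.123).

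**Figure D2:**
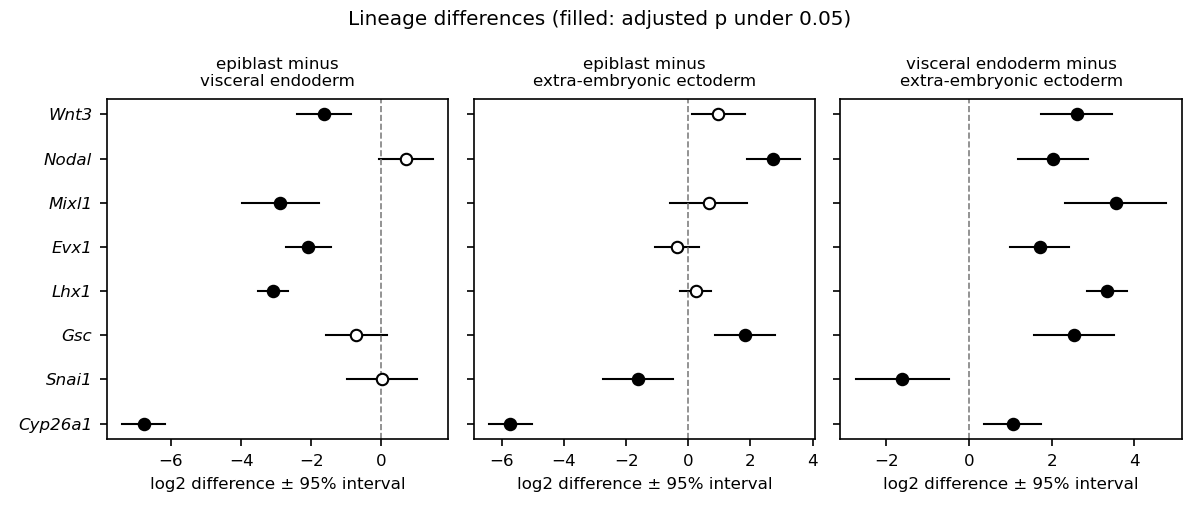
Lineage differences of the 8 genes tested, as log2 differences with their 95% intervals on the horizontal axis, averaged over both genotypes; filled points have an adjusted p under 0.05. In the left panel 5 genes are lower in epiblast than in visceral endoderm and none is called higher, and in the right panel 7 are higher in visceral endoderm than in extra-embryonic ectoderm.

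Across the 11 libraries Lhx1 varied most like Mixl1 (Pearson r 0.93 of log2 values) and Evx1 (0.90) among the members, while Snai1 ran against Nodal (-0.54). The genes of the whole table most like each member were Ddt, Rmdn2 and Tdh for Wnt3 (the highest r 0.955), Triobp, Tcea3 and Itm2c for Nodal (0.957), Sp5, Rab5c and Lipa for Mixl1 (0.974) and Man2b1, A4galt and Gprc5c for Evx1 (0.952). For Lhx1 they were Akr1c12, Fmo4 and Tfec (0.996), for Gsc Acrbp, Epb41l5 and Rln3 (0.96), for Snai1 Gata1, Tubb2a and Otud3 (0.894), and for Cyp26a1 Sri, Slc50a1 and Elovl1 (0.983). These correlations are over 11 libraries of 3 tissues that share the lineage differences, and they describe a tissue pattern and nothing closer.

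Of the other core streak genes, Eomes, a T-box factor of both trophoblast and streak, was at 12.5 and 15.4 FPKM in control and 15.3 and 6.70 in knockout epiblast, at 9.44 and 10.2 in control and 22.7 and 16.8 in knockout visceral endoderm, and at 89.2 in control and 79.9 and 87.0 in knockout extra-embryonic ectoderm. Bmp4 was between 79.3 and 130 FPKM in extra-embryonic ectoderm and between 1.32 and 3.27 elsewhere. Both were called lower in epiblast than in extra-embryonic ectoderm (log2 differences -2.76 and -5.01, limma adjusted p = 0.000203 and 9.64e-06). Fgf8, a growth factor of the streak, was at 49.3 and 56.6 FPKM in control and 61.1 and 6.74 in knockout epiblast, with knockout replicate 2 far below the others, and between 9.13 and 44.4 in visceral endoderm. None of T, Eomes, Fgf8 and Bmp4 was called between epiblast and visceral endoderm (limma adjusted p = 0.664, 0.578, 0.537 and 0.676). The streak genes therefore did not share a lineage order, and those called in visceral endoderm against epiblast did not include T.

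The pathways of these genes were followed through lists, some of which hold members. Their counts in epiblast against visceral endoderm are to be read beside the 21.6% of all genes called higher, the 16.8% called lower and the median log2 difference of 0.20 over all genes. Of 23 Nodal pathway genes tested, 8 were higher and 3 lower in epiblast, with a median of 0.70. The co-receptor gene Tdgf1, or Cripto, was at a mean of 135 FPKM in epiblast and 0.0787 in visceral endoderm (difference 6.92, SE 0.60, limma adjusted p = 2.19e-05), and its relative Cfc1, or Cryptic, had the reverse order, at 2.64 and 73.9 FPKM (-4.39, SE 0.25, limma adjusted p = 1.71e-06). The values of Nodal itself overlapped between the tissues, as given above. Of 36 canonical Wnt genes 30 were tested, with 6 higher, a share near that of all genes, and 11 lower in epiblast, and with a median of -0.055. The transcriptional effector Lef1 was higher in epiblast by 4.13 (SE 0.28, limma adjusted p = 4.75e-06), and the secreted antagonist Dkk1 lower by -5.54 (SE 0.33, limma adjusted p = 2.29e-06), at means of 0.117 and 54.9 FPKM.

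Of 23 BMP pathway genes 21 were tested, and 11 were lower in epiblast than in visceral endoderm and 0 higher, with a median of -0.88. The target gene Msx2 differed most, by -4.82 (SE 0.26, limma adjusted p = 1.35e-06). Of 38 streak and mesendoderm genes, a list that holds Mixl1, Evx1, Mesp1, Lhx1 and Gsc, 27 were tested, with 6 higher, again near the share of all genes, and 14 lower, and with a median of -1.04. Otx2 was the most strongly higher in epiblast (3.87, SE 0.39, limma adjusted p = 5.55e-05) and the endoderm factor Sox17 the most strongly lower (-5.26, SE 0.47, limma adjusted p = 2.69e-05). Of 22 genes of the epithelial-mesenchymal transition 16 were tested, with 5 higher, led by the matrix protease gene Mmp2 (2.65, SE 0.22), and 5 lower, of which the tight junction gene Cldn6 (-1.84, SE 0.29) had the largest difference among those with a mean of at least 5 FPKM in visceral endoderm. The median of this list was -0.045.

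The list for retinoic acid, the substrate of CYP26A1, had 14 of 22 genes tested, with 5 higher and 6 lower in epiblast and a median of 0.059. Rbp4, which encodes the retinol carrier of plasma, was at a mean of 1789 FPKM in visceral endoderm and 2.22 in epiblast (difference -9.14, SE 0.24, limma adjusted p = 3.84e-08). The nuclear receptor gene Rarg had the reverse order, at 0.00415 and 11.4 FPKM (3.54, SE 0.27, limma adjusted p = 9.54e-06). The carrier and the degrading enzyme were thus both at their highest means in visceral endoderm, while this receptor gene was close to 0 there.

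**Figure D3:**
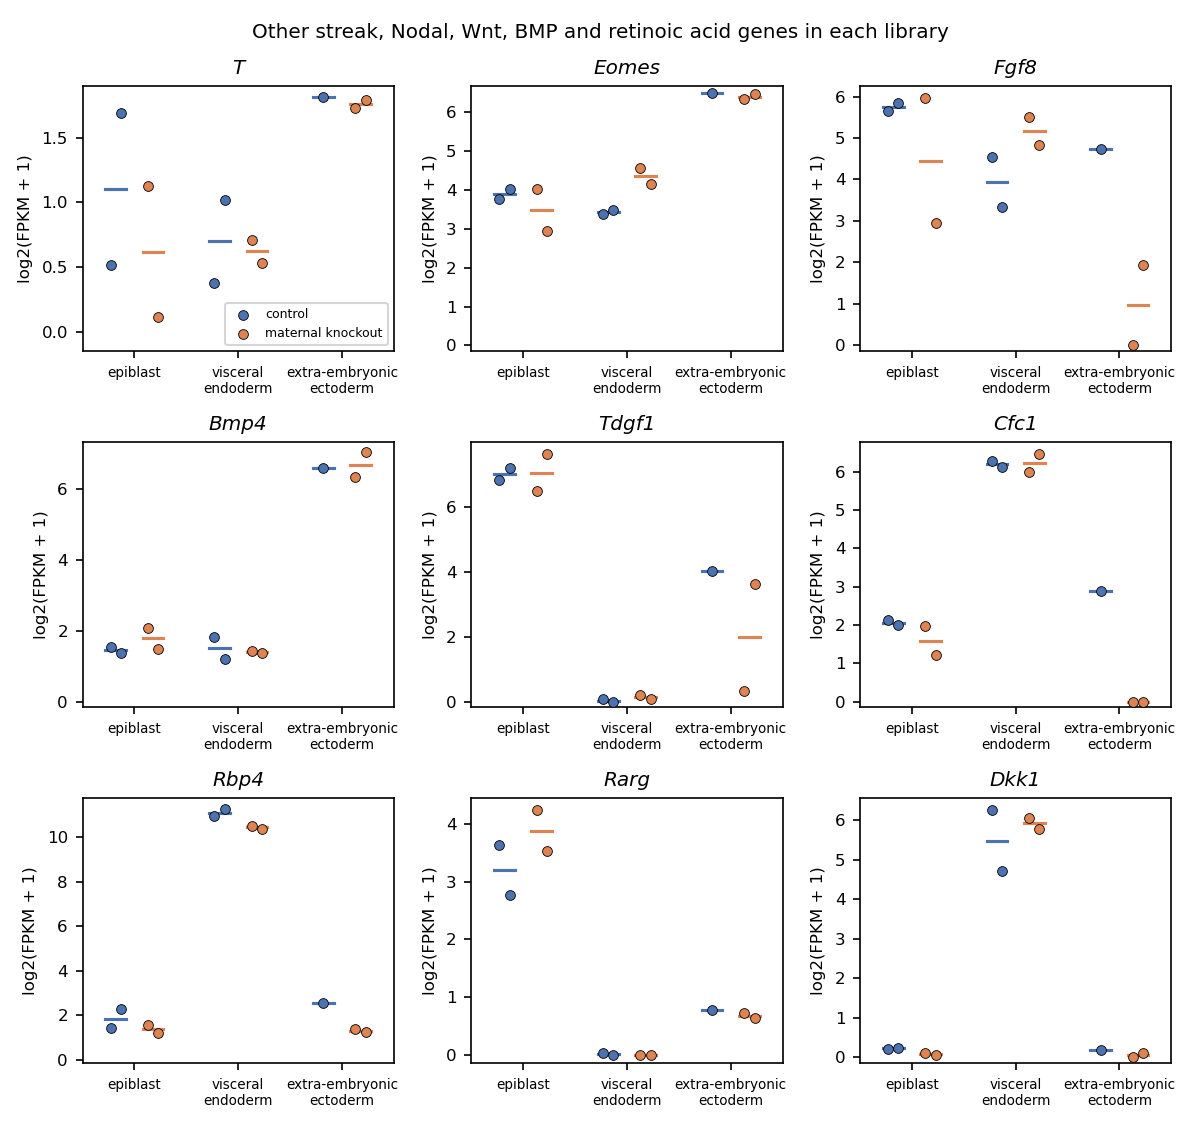
Levels of 9 other streak and pathway genes in each library as log2(FPKM + 1) on the vertical axis, by lineage; points are libraries, blue for controls and orange for maternal knockouts, and bars are group means. Bmp4 and Eomes are highest in extra-embryonic ectoderm, Tdgf1 and Rarg in epiblast, and Cfc1, Rbp4 and Dkk1 in visceral endoderm.

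The second comparison asked whether loss of maternal Bap1 changed these genes. For this, limma was run on log2(FPKM + 1) of 13376 genes in the 8 libraries of epiblast and visceral endoderm. None of the 8 members tested was called in epiblast, in visceral endoderm or in the difference of the knockout effect between them, and neither was any gene of the pathway lists. Over all genes 0 were called in epiblast (0%), 306 having an unadjusted p under 0.05 (2.29%). In visceral endoderm 1 was called (0.00748%), 170 having an unadjusted p under 0.05 (1.27%), and it was the predicted gene Gm44805, named here after its values were seen.

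In epiblast the largest difference among the members was that of Cyp26a1, from 4.63 and 4.16 FPKM in the controls to 0.196 and 0.0361 in the knockouts, a log2 difference of -2.28 (SE 0.39, 95% interval -3.17 to -1.38). Its unadjusted p was 0.000273 and its adjusted p 0.686 (limma), so it was not called. With a pseudocount of 0.1 FPKM the difference was -4.48 and was called (limma adjusted p = 0.0386). Nodal was higher in both knockout libraries than in both controls (0.90, SE 0.44, 95% interval -0.10 to 1.90), and Lhx1 lower in both (-0.37, SE 0.34), at levels that did not reach 0.4 FPKM in any epiblast library. In total 1 of the 8 genes was higher in both knockout libraries and 2 were lower, where 14.6% and 9.42% of all genes did so. The other 5 overlapped between the genotypes, with log2 differences of 0.49 for Wnt3, 0.43 for Evx1, -0.19 for Snai1, -0.61 for Gsc and -1.32 for Mixl1. Without control replicate 2 the Mixl1 difference was -0.10. The median difference of the 8 genes, -0.28 against 0.06 over all genes, turned to 0.16 without control replicate 2 and to 0.24 without knockout replicate 2.

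Beside the Cyp26a1 values stand those of visceral endoderm markers in the same epiblast libraries. Of the 9 markers, Ttr, Afp, Apoa1 and Trf were also lower in both knockout epiblast libraries than in both controls, and 0 were higher. Over all genes 9.42% were lower in this way and 14.6% higher. None of the 9 was at 0 in all libraries. The summed level of the list was 12.9 to 16.3 FPKM in control and 9.44 to 41.6 in knockout epiblast, the top value being mostly Rhox5, at 39.3 FPKM in knockout replicate 2. As a share of the visceral endoderm mean of the same genotype, control epiblast held 2.20% of Cyp26a1, against 0.0329% of Ttr, 0.234% of Afp, 0.0886% of Apoa1 and 1.62% of Trf. In knockouts the share was 0.0304% for Cyp26a1, 0.000986% for Ttr, 0.0105% for Afp, 0.0137% for Apoa1 and 0.473% for Trf. The share of Apob also went down, from 0.409% to 0.139%. Its epiblast mean was nearly the same, at 0.0698 FPKM in controls and 0.0598 in knockouts, and its visceral endoderm mean rose from 17.1 to 42.8. A share therefore also moves with the visceral endoderm mean, which for Cyp26a1 rose from 200 to 381 FPKM. The other markers had larger shares in knockouts, at 0.260% and 0.424% for Amn, 0.0458% and 0.0785% for Cubn, 0.286% and 1.31% for Rhox5 and 0.196% and 0.304% for Sox17. Of the 8 anterior visceral endoderm genes, a list that also holds Lhx1 and Gsc, 5 (Cer1, Hhex, Hesx1, Dkk1 and Lhx1) were lower in both knockout epiblast libraries and 0 higher. Hhex, Dkk1 and Lhx1 were below 1 FPKM in every epiblast library. Of 9 extra-embryonic ectoderm markers 5 (Elf5, Cdx2, Sox3, Ascl2 and Gata3) were higher in both knockout epiblast libraries and 0 lower. Elf5, Cdx2 and Gata3 were below 1 FPKM in every epiblast library. The summed level of that list was 25.1 to 30.2 FPKM in control and 27.7 to 51.4 in knockout epiblast. The part of visceral endoderm or extra-embryonic ectoderm RNA in the Cyp26a1 difference was not tested.

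**Figure D4:**
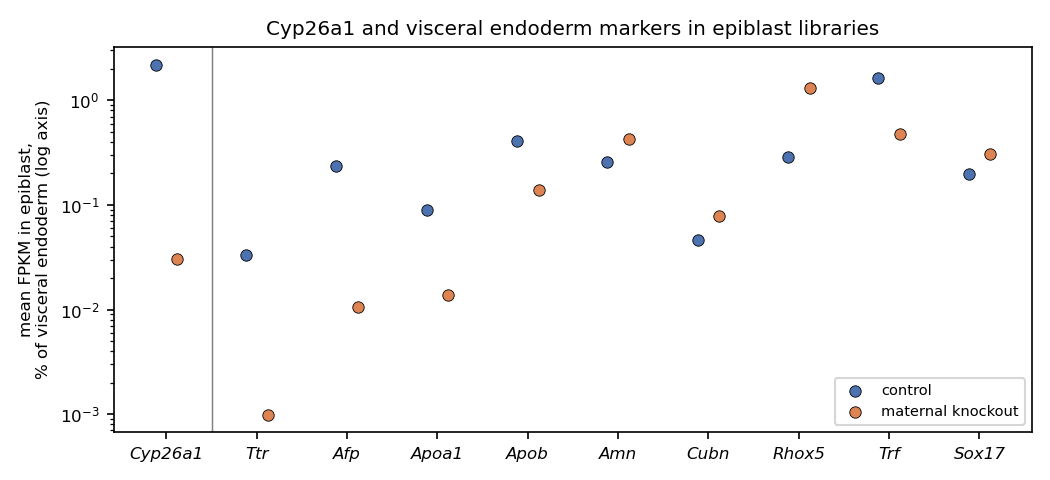
Mean FPKM in epiblast as a percentage of the mean in visceral endoderm of the same genotype (vertical log axis) for Cyp26a1 and 9 visceral endoderm markers; blue points are controls and orange points maternal knockouts, each from 2 libraries per lineage. Cyp26a1 is at 2.20% in controls and 0.0304% in knockouts, and the markers fall in some cases and rise in others.

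In visceral endoderm 7 of the 8 differences were above 0 and none was called. Mixl1, Evx1, Lhx1, Snai1 and Cyp26a1 were higher in both knockout libraries than in both controls (5 of 8, where 14.3% of all genes were), and Wnt3 was lower in both (1 of 8, where 9.81% were). The log2 differences were 1.04 for Mixl1 (SE 0.72), 0.97 for Evx1 (SE 0.43), 0.78 for Lhx1 (SE 0.34), 1.15 for Snai1 (SE 0.64), 0.91 for Cyp26a1 (SE 0.39) and -0.25 for Wnt3 (SE 0.52). Gsc (0.79) and Nodal (0.30) overlapped between the genotypes. The smallest unadjusted p values were 0.0450 for Lhx1, 0.0459 for Cyp26a1 and 0.0501 for Evx1, and the adjusted p was 1 for all 8 (limma).

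The median of the 8 differences in visceral endoderm was 0.85 against 0.05 over all genes, over the 8 genes tested. Without knockout replicate 1, the library with blood transcripts, Cryab and Prl8a2, it was 0.40, with 6 of 8 above 0. The Snai1 difference then fell from 1.15 to 0.28. Markers of other tissues were counted in the same way, beside 14.3% of all genes higher in both knockout libraries and 9.81% lower. Of 9 epiblast markers 1 was higher in both knockout visceral endoderm libraries (Fgf5) and 1 lower (Pou3f1), and of 9 extra-embryonic ectoderm markers 2 were higher (Elf5 and Eomes) and 1 lower (Esrrb). Of 5 parietal endoderm markers 3 were higher (Thbd, Sparc and Plat) and 0 lower, with Thbd and Plat below 1 FPKM in knockout replicate 2. Of 6 decidual markers 1 was higher (Cryab) and 1 lower (Bmp2). The summed epiblast markers were at 204.7 to 239 FPKM in knockouts against 143 to 175 in controls. Pou5f1 was at 0 in both knockout libraries. The part of these in the differences was not tested.

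The effects in epiblast and visceral endoderm were compared directly. The difference between them was -3.19 for Cyp26a1 (SE 0.56, unadjusted p = 0.000292, limma adjusted p = 0.976), since it was lower in both knockout epiblast libraries and higher in both knockout visceral endoderm libraries. It was -2.36 for Mixl1 (SE 1.02, unadjusted p = 0.0458 by limma) and -1.15 for Lhx1 (SE 0.48, unadjusted p = 0.0387 by limma), with adjusted p-values of 1.00 for both. None of the 8 was called, and over all genes 1 was (0.00748%), again Gm44805, with 1.35% at an unadjusted p under 0.05.

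**Figure D5:**
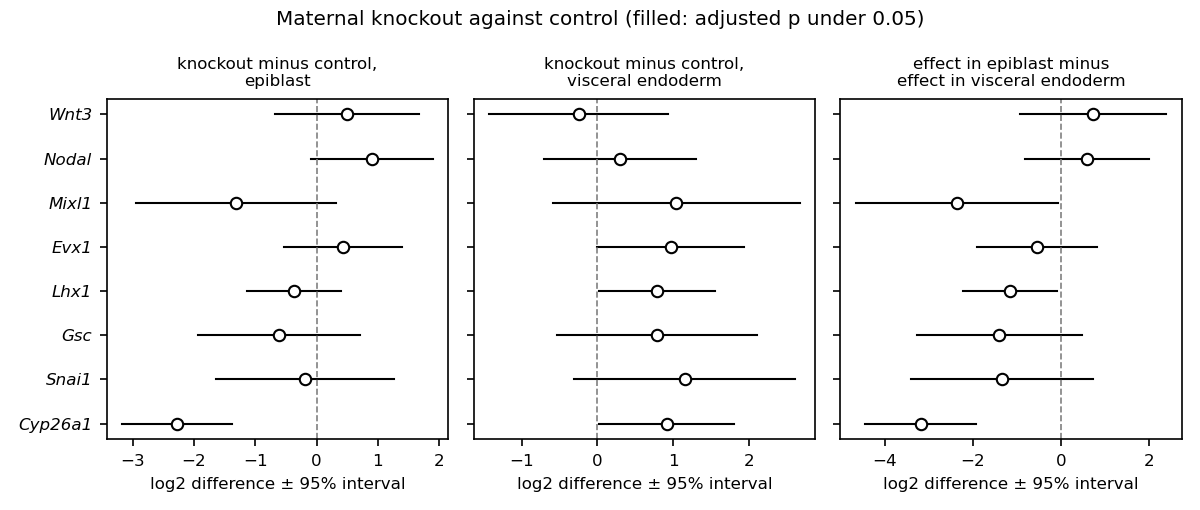
Maternal knockout against control for the 8 genes tested, as log2 differences with their 95% intervals on the horizontal axis, in epiblast, in visceral endoderm, and as the difference of the 2 effects; filled points would have an adjusted p under 0.05, and there are none. The interval of Cyp26a1 lies below 0 in epiblast, at -3.17 to -1.38.

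Extra-embryonic ectoderm had 1 control library, so its genotypes were not tested and the values are given without a replicate check. A log2 difference past 1 was found for 2 of the 8 genes, both lower in knockouts, where 1.33% of all genes passed it upward and 2.37% downward. These were Nodal, from 4.13 FPKM to 0.0750 and 1.23 (-1.73), and Wnt3, from 1.23 to 0.00112 and 0.155 (-1.05). By the weaker measure of both knockout libraries lying on the same side of the control, 5 of the 8 were lower (Wnt3, Nodal, Mixl1, Evx1 and Gsc) and 0 higher, where 35.5% of all genes were lower and 30.5% higher. The epiblast gene Pou5f1 was at 20.5 FPKM in that control library and at 0.127 and 13.8 in the knockout libraries, and of the 9 epiblast markers 4 were lower in both knockout libraries and 1 higher, with summed levels of 682 FPKM in the control and 568 and 656 in the knockouts, largely from Utf1. Of the 9 visceral endoderm markers 7 (Ttr, Afp, Apoa1, Apob, Amn, Cubn and Sox17) were lower in both knockout libraries and 0 higher, with Ttr at 1.59 FPKM in the control and 0.102 and 0.0902 in the knockouts. Their part in the differences was not tested. Cyp26a1 (0.31) and Snai1 (0.00075) were close to their control value.

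The 26 total RNA libraries, from fully grown oocytes, MII eggs, late 1-cell embryos and embryos of the 2-cell stage taken early or late, form another table, normalized apart, so levels cannot be set against those of embryonic day 6.5. They came from mothers of the same 2 genotypes, and the embryos were sired by B6 males. Wnt3, Nodal, Mixl1 and Mesp1 did not reach 1 FPKM in any of the 26, the highest value being 0.690 for Mixl1. Evx1 was present in oocytes at 4.99 to 5.52 FPKM and in MII eggs at 4.27 to 5.17, was at 1.00 to 1.25 in late 1-cell embryos and stayed at or below 0.652 from the early 2-cell stage on. Those oocyte and egg ranges hold controls and knockouts together.

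Snai1 reached 1 FPKM in 25 of the 26 early libraries and was highest in late 2-cell embryos. There it was at 12.9 and 15.2 FPKM in the controls and at 8.53, 8.23 and 11.8 in the knockouts, without overlap and without a test here. Lhx1 reached 1.98 and 2.66 FPKM in control and 1.16, 1.52 and 1.20 in knockout late 2-cell embryos, again without overlap. Of the 3 members that reached 1 FPKM in 2 or more of these 5 libraries, Snai1 and Lhx1 were thus lower in every knockout library and Cyp26a1 overlapped, where 30.6% of all such genes were lower without overlap and 31.6% higher. Wnt3 ran the other way below 1 FPKM, at 0 in both controls and at 0.486, 0.497 and 0.586 in the knockouts, and Mixl1 was lower below 1 FPKM. Gsc stayed between 0 and 1.42 FPKM over all 26 and Cyp26a1 at or below 1.63.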

How the data were processed

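Per the labels, the 11 libraries of embryonic day 6.5 lineages were made from poly(A) RNA and the 26 earlier ones from total RNA with a stranded kit. The submitters' processing notes name Trim Galore 0.6.6, STAR 2.7.9, StringTie 2.1.7 and mm10, with no role or order. The authors deposited FPKM, 1 column per library, although the headers end in rpkm. One value below 0 in control epiblast replicate 1 made that column's unit other than strict FPKM, and was set to 0. No column was left unmatched (0). Depth is unknown, and the number of libraries limits the precision.

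Groups were taken from the sample titles. log2(FPKM + 1) values were fitted with limma 3.58.1 in R 4.3.3 (a mean per lineage and genotype, eBayes with trend, Benjamini-Hochberg over all genes tested, threshold 0.05), after dropping genes that reached 1 FPKM in fewer than 2 of the fitted libraries. On the log2(FPKM + 1) scale the change of a low gene is understated. Lineage contrasts used all 11 libraries and genotype contrasts the 8 of epiblast and visceral endoderm. The fit was tested on simulated data with changes set in knockout epiblast. It called 0 of 67 genes changed by 1 on the log2 scale, 18 of 67 changed by 2 and 55 of 66 changed by 4. There was 1 false call. The lack of a call for the knockout therefore does not show that a gene is unchanged, either at differences of about 1 or at differences of about 2. Positions are from GENCODE M21 (GRCm38), whose versioned identifiers matched for all 9 genes. Shared 50-base words with other genes were 0.904% for Evx1 and 0% for the other 8.

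The members and lists were chosen with earlier results of these data known. Genes named beside the members are T, Eomes, Fgf8 and Bmp4; from each pathway list the most strongly higher and lower gene in epiblast against visceral endoderm with at least 5 FPKM in the higher lineage; list genes called for the knockout, of which there were 0; and the 3 genes most correlated with each member, among those reaching 5 FPKM and without predicted or clone names. Markers and genes behind small counts were added. Alternatives were other pseudocounts, filters, scalings, variance models, subsets of libraries and replicate blocks. Tables were made with pandas 2.3.3 under Python 3.11.15 and figures with matplotlib 3.10.9.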

Additional observations from a re-analysis of the deposited data

Results flagged for a closer look

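For 3 genes, effects of the maternal knockout ran in opposite directions in extra-embryonic ectoderm and another lineage in every library. Because extra-embryonic ectoderm has 1 control library these differences were not tested. Over all genes, 14.6% were higher without overlap in knockout epiblast and 14.3% in knockout visceral endoderm. In extra-embryonic ectoderm 35.5% were lower in both knockout libraries. The share of all genes with opposite directions was not counted, so these 3 cannot be set against it. Nodal was higher in both knockout epiblast libraries and lower in both knockout extra-embryonic ectoderm libraries than in their controls, a difference between the effects of 2.63 on the log2 scale. Mixl1 was higher in both knockout visceral endoderm libraries and lower in both knockout extra-embryonic ectoderm libraries, by 1.24 between the effects, with all extra-embryonic values under 1 FPKM. Evx1 did the same, by 1.93. Cyp26a1 and Lhx1 were lower in both knockout epiblast libraries and higher in both knockout visceral endoderm libraries, and that difference was tested and not called (limma adjusted p = 0.976 and 1.00).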

How the results depend on the processing

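Of the calls behind the member counts, those of epiblast against visceral endoderm changed least, with 5 to 6 members called when each library was left out, and 2 among the 3 members with a mean of at least 5 FPKM. Against extra-embryonic ectoderm, epiblast had 4 called in the reported fit, 2 without a filter, 2 at a mean of at least 5 FPKM, 1 with control libraries only and 2 to 4 when a library was left out, the 2 arising without knockout extra-embryonic ectoderm replicate 2, and visceral endoderm had 8, then 3 at a mean of at least 5 FPKM, 2 with control libraries only and 6 to 8. For these filters fewer genes were tested, and the controls-only contrasts rest on fewer samples. For the knockout in epiblast, 1 member (Cyp26a1) was called with a pseudocount of 0.1; over all genes 3 were called with that pseudocount (Cyp26a1, Foxd3 and Trex1), 3 with epiblast alone (Gm28437, Gm28439 and Gm28661) and 0 to 2 when a library was left out, the 2 without either knockout visceral endoderm library. In visceral endoderm over all genes 0 were called without a filter, 2 in that lineage alone (Bola1 and Gm44805) and 0 to 3 when a library was left out: 0 without knockout replicate 1, 3 without knockout replicate 2 and 2 without control replicate 2. The cause was not tested.

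Replicate numbers are in the titles but no label says that they pair libraries. The deviations from group means of libraries with the same number correlated between the genotypes at 0.59 in epiblast and 0.42 in visceral endoderm, and between epiblast and visceral endoderm at -0.30 in controls and -0.38 in knockouts. In knockouts the correlation was 0.51 between epiblast and extra-embryonic ectoderm and -0.36 between visceral endoderm and extra-embryonic ectoderm. With a replicate block within lineage, Cyp26a1 was called in epiblast (1 member, adjusted p = 0.0359) and in the difference between lineages (1 member, adjusted p = 0.0426), and 4 genes were called in epiblast over all (Cyp26a1, Foxd3, Gm28661 and Spink1), all by limma. That block joins control and knockout libraries of the same number, which differed in Y-linked signal. In epiblast replicate 1 its sum was 38.1 FPKM in the control and 0 in the knockout, and in replicate 2 it was 0 and 68.0. A block across lineages gave 5, 3 and 6 members called for epiblast against visceral endoderm, epiblast against extra-embryonic ectoderm and visceral endoderm against extra-embryonic ectoderm. With the visceral endoderm numbers crossed, an alternative chosen after seeing the data, it gave 5, 4 and 8. The Y-linked signal followed the same numbers in all 3 lineages. Crossing them therefore sets visceral endoderm libraries without that signal beside libraries of the other lineages with it, and the reverse.

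Directions turned only in differences that were not called. In epiblast against visceral endoderm Snai1 was -0.081 with median centring, Eomes 0.47 and Bmp4 -0.069 with control libraries only, and Fgf8 in visceral endoderm against extra-embryonic ectoderm was -0.80 with control libraries only. Leaving out libraries gave ranges across 0 for epiblast against visceral endoderm in Snai1 (-0.43 to 0.44), T (-0.094 to 0.49), Eomes (-0.47 to 0.065) and Fgf8 (-0.20 to 1.30), for epiblast against extra-embryonic ectoderm in Evx1 (-0.65 to 0.11), for the knockout in epiblast in Wnt3 (-0.14 to 1.12), Evx1 (-0.13 to 0.98), Gsc (-1.36 to 0.15) and Snai1 (-0.80 to 0.42), for the knockout in visceral endoderm in Nodal (-0.16 to 0.76), and for the difference of the effects in Evx1 (-1.09 to 0.016). Centring on library medians moved the median of all genes for the knockout in epiblast by -0.15.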
